A study of Mus musculus with 5 samples.

Results

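The 10 genes described here are used as markers of macrophages or of their activation. Their RNA was measured in the mouse iridocorneal angle, the ring of tissue between iris and cornea through which aqueous humor drains. They were taken by name from the 56941 gene identifiers of the deposited table, and all 10 were found. They comprised 4 genes used as general macrophage markers (Csf1r, Adgre1, Cx3cr1 and Aif1) and the inflammatory lectin Clec4e. The other 5 were scavenger and uptake receptors of resident and perivascular macrophages (Mrc1, Lyve1, Cd163, Folr2 and Timd4). All 10 passed the minimum of 10 counts in at least 1 pool, which 19713 genes passed.

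RNA was sequenced from pooled angle tissue of untreated 12-month-old mice of both sexes, with 3 DBA/2J pools and 2 Gpnmb+ pools. DBA/2J mice carry the truncating R150X allele of Gpnmb, a glycoprotein of pigment cells and macrophages, together with the b allele of Tyrp1, and they develop pigmentary glaucoma. The Gpnmb+ mice, labelled DBA/2J-Gpnmb+/SjJ, have the functional Gpnmb allele on the same background. They keep Tyrp1 b, so that allele was shared by all pools. The alleles are germline, so every cell of the tissue carried them and the comparison is not limited to macrophages. The study describes each pool as 3 mice, whereas the library names list 3 animals in each DBA/2J library and 2 in each Gpnmb+ library. Most of the iris and ciliary body was removed at dissection, but the study's methods say that remnants stayed attached, and how much of them each pool held was not measured here.

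Resident macrophages depend on the receptor encoded by Csf1r, which binds the growth factors CSF1 and IL34. In the eye such cells sit along vessels, in the uveal stroma and in the outflow tissue, where they take up debris and pigment. Perivascular macrophages are known for high scavenger receptor expression, whereas Clec4e is induced in activated myeloid cells. Recruited monocytes and neutrophils can also express Clec4e.

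Each pool held between 43900661 and 49837758 counts on genes. Gpnmb itself, the gene that differs between the strains, ranged from 1946 to 2234 counts in DBA/2J, against 110568 and 129659 with the functional allele. The sex-linked genes did not match pools of both sexes. The Y-linked gene Ddx3y was counted 3608, 4168 and 1567 times in DBA/2J pools 1 to 3 but 0 and 4 times in the Gpnmb+ pools, and the X-inactivation transcript Xist had 0 counts in DBA/2J pool 2. Genotype and the sex makeup of the pools therefore cannot be told apart in any value below. The labels name no batch, and p-values measure the spread between these pools. In bulk tissue, fewer macrophages and less RNA per macrophage cannot be told apart.

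The 10 genes covered a wide range of levels. Expressed as CPM (counts scaled by library size to a common total) and divided by the length of the merged exons in kilobases, the means over the 5 pools were 21.2 for Csf1r, 21.0 for Adgre1, 13.7 for Mrc1, 12.97 for Cx3cr1 and 7.88 for Folr2. The lower levels per kilobase were 4.86 for Lyve1, 4.31 for Cd163, 4.01 for Aif1, 1.56 for Clec4e and 0.579 for Timd4. The ranges over pools of neighbors in this order overlapped in every case except Folr2 and Lyve1. Genes for the receptor of the macrophage growth factors and for F4/80 thus stood at the top of the order and the phosphatidylserine receptor gene Timd4 at its end.

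**Figure D1:**
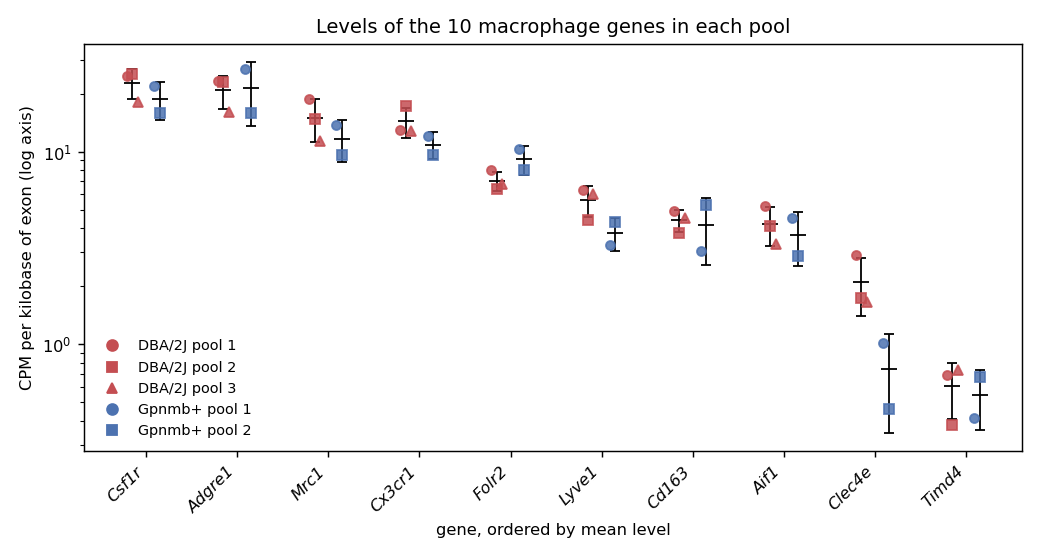
Level of each gene in each pool, in CPM per kilobase of exon on a log axis, ordered by the mean over the 5 pools, with colored points for the pools and black bars for the genotype mean ± SD (n = 3 and n = 2). The points of DBA/2J and Gpnmb+ overlap for Csf1r, Adgre1, Mrc1, Cd163, Aif1 and Timd4, and Clec4e shows the widest gap.

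Compared between genotypes, none of the 10 genes was called by edgeR's quasi-likelihood test, in which a called gene had to reach an adjusted p (Benjamini-Hochberg) of 0.05 or less and change by 1.5-fold or more. The share called among the 19713 genes was 0.796%, with 0.502% higher and 0.294% lower in DBA/2J. An unadjusted p under 0.05 was reached by 2 of the 10 genes, Clec4e and Lyve1, both higher in DBA/2J, beside 15.9% of all genes (8.31% higher and 7.6% lower). DESeq2 called 1, Clec4e (4.7% of all genes), and limma-voom called 0. The fit with pool number as a block called Clec4e too (1.12% of all genes). Its genotype estimate rests on the pools with a same-numbered partner, which DBA/2J pool 3 lacks. The pools of the genotypes did not overlap for 4 of the 10 genes, 3 higher and 1 lower in DBA/2J, and this was so for 34.5% of all genes (17.3% higher and 17.2% lower). The median log2 fold change was 0.24, with 8 genes above 0 and 2 below, and -0.02 over all genes tested. In all statements positive values are higher in DBA/2J. The same shares of all genes stand beside every gene list below: 0.796% called by edgeR, 4.7% by DESeq2 and 15.9% with an unadjusted p under 0.05.

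**Figure D2:**
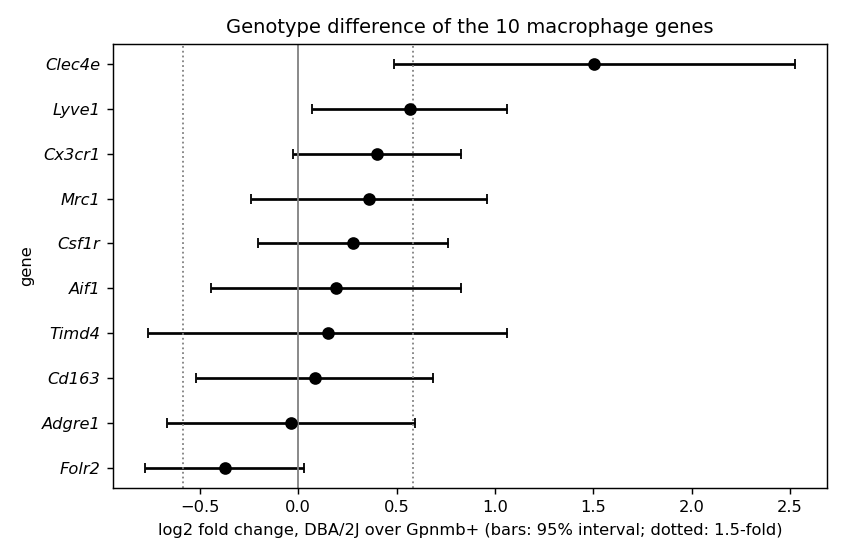
Log2 fold change of each gene, DBA/2J over Gpnmb+, with its 95% interval from edgeR's quasi-likelihood fit, and dotted lines at 1.5-fold. The intervals of Clec4e (0.49 to 2.53) and Lyve1 (0.07 to 1.06) lie above 0, and the other 8 include 0.

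Among the 4 general macrophage genes, Csf1r (chromosome 18, 61229714 to 61266535, GRCm39 throughout) measured 182.9, 186.6 and 133.9 CPM in DBA/2J pools 1 to 3, against 160.5 and 116.2 CPM in Gpnmb+ pools 1 and 2. DBA/2J pool 3 fell between the Gpnmb+ pools, so the genotypes overlapped, and the log2 fold change was 0.28 (SE 0.20, 95% interval -0.21 to 0.76, adjusted p = 0.550).

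Adgre1 encodes the surface protein F4/80 (chromosome 17, 57665573 to 57790527). Its DBA/2J pools had 82.1, 80.8 and 56.8 CPM and its Gpnmb+ pools 94.3 and 55.9, so the Gpnmb+ pools held both the highest and the lowest value. Its log2 fold change was -0.04 (SE 0.26, 95% interval -0.67 to 0.59, adjusted p = 0.961). This sign turned without Gpnmb+ pool 1, where the log2 fold change was 0.39.

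Cx3cr1, the receptor of the membrane-bound chemokine CX3CL1 (chromosome 9, 119877749 to 119898945), had 60.6, 80.7 and 59.3 CPM in DBA/2J and 56.4 and 44.9 in Gpnmb+. All DBA/2J pools were above both Gpnmb+ pools, with a narrow gap between DBA/2J pool 3 and Gpnmb+ pool 1. Its log2 fold change was 0.40 (SE 0.18, 95% interval -0.03 to 0.83, adjusted p = 0.343).

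Aif1 encodes the actin-binding protein IBA1 (chromosome 17, 35387384 to 35395053), with 22.2, 17.4 and 14.0 CPM in DBA/2J and 19.1 and 12.2 in Gpnmb+. The pools overlapped and the log2 fold change was 0.19 (SE 0.26, 95% interval -0.44 to 0.83, adjusted p = 0.769). Aif1 turned to -0.092 without Gpnmb+ pool 2 and stood at 0.56 without Gpnmb+ pool 1.

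The ligands of these receptors were measured in the same tissue. Csf1 had 96.7, 93.5 and 89.5 CPM in DBA/2J and 78.5 and 71.3 in Gpnmb+, with no overlap, and a log2 fold change of 0.32 (SE 0.09, adjusted p = 0.165). Il34 had a log2 fold change of 0.33 (SE 0.17, adjusted p = 0.418) and Cx3cl1 of 0.25 (SE 0.21, adjusted p = 0.617). None of the 3 ligands was called by edgeR, DESeq2 or limma-voom, and 1, Csf1, had an unadjusted p under 0.05.

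Among the scavenger and uptake receptors, Mrc1 encodes the mannose receptor CD206 (chromosome 2, 14234151 to 14336926). It had 147.8, 115.6 and 89.0 CPM in DBA/2J and 107.5 and 75.4 in Gpnmb+, so DBA/2J pool 3 was below Gpnmb+ pool 1. A log2 fold change of 0.36 was found for Mrc1 (SE 0.25, 95% interval -0.24 to 0.96, adjusted p = 0.531).

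Lyve1, a hyaluronan receptor of perivascular macrophages and of lymphatic endothelium (chromosome 7, 110448585 to 110462460), had 26.2, 18.4 and 25.1 CPM in DBA/2J and 13.5 and 17.8 in Gpnmb+. The lowest DBA/2J pool was just above the highest Gpnmb+ pool. The log2 fold change was 0.57 (SE 0.20, 95% interval 0.07 to 1.06, unadjusted p = 0.0311, adjusted p = 0.263 from edgeR). Of the 6 lymphatic endothelium markers none was called by edgeR, DESeq2 or limma-voom, 2 had an unadjusted p under 0.05, and the median log2 fold change was -0.23. Of these 6 markers, 2 had a log2 fold change above 0 and 4 below. The pools did not overlap for 1 higher and 3 lower in DBA/2J. Their summed level was 643.6 to 684.9 CPM in DBA/2J and 589.6 and 626.3 in Gpnmb+, the opposite direction to the median. That sum is weighted to genes of high count such as Pdpn, which had the largest log2 fold change of the list (0.45). The part of lymphatic endothelium in the Lyve1 values was not tested. Stab2, a hyaluronan scavenger receptor also found on lymphatic and sinusoidal endothelium, had 51.5, 69.8 and 73.6 CPM in DBA/2J and 27.0 and 42.4 in Gpnmb+, with no overlap (log2 fold change 0.91, SE 0.24, adjusted p = 0.157).

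Cd163, the scavenger receptor for haptoglobin and hemoglobin (chromosome 6, 124281606 to 124307560), had 27.2, 21.1 and 25.1 CPM in DBA/2J and 16.8 and 29.3 in Gpnmb+. The Gpnmb+ pools lay on either side of all DBA/2J pools. The log2 fold change was 0.08 (SE 0.25, 95% interval -0.52 to 0.69, adjusted p = 0.902), and it was -0.26 without Gpnmb+ pool 1. Among 12 genes of hemoglobin, heme and iron handling edgeR and limma-voom called none and DESeq2 called 1, Trf, with 2 at an unadjusted p under 0.05 in edgeR and a median log2 fold change of 0.10. Hp, which encodes the haptoglobin that Cd163 protein takes up, had a log2 fold change of 1.42 (SE 0.63, adjusted p = 0.349), and Trf, transferrin, of -0.75 (SE 0.20, adjusted p = 0.164).

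Folr2, which encodes folate receptor beta (chromosome 7, 101489195 to 101506401), was the member with the lowest log2 fold change. It had 12.7, 10.2 and 10.8 CPM in DBA/2J and 16.4 and 12.8 in Gpnmb+, so the DBA/2J pools were below the Gpnmb+ pools with little gap. The log2 fold change was -0.37 (SE 0.16, 95% interval -0.78 to 0.03, adjusted p = 0.346 from edgeR).

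Timd4 encodes TIM-4, which binds phosphatidylserine on dying cells (chromosome 11, 46701620 to 46735177). Its counts were 122, 65 and 130 in DBA/2J against 83 and 131 in Gpnmb+, so counting error alone was up to 12.4% of its value. In CPM the values were 2.74, 1.51 and 2.91 against 1.64 and 2.68, which overlapped, and the log2 fold change was 0.15 (SE 0.37, 95% interval -0.76 to 1.06, adjusted p = 0.882). It was -0.16 without Gpnmb+ pool 1. Of 12 genes of phosphatidylserine recognition and engulfment, edgeR and limma-voom called none and DESeq2 called 1, Stab2, with 2 at an unadjusted p under 0.05 in edgeR. The log2 fold changes were 0.25 for the receptor Axl, 0.09 for its ligand Gas6 and -0.15 for Mfge8, which bridges dying cells to integrins.

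Clec4e encodes Mincle, a lectin that binds glycolipids and a nuclear protein of dead cells and signals through the kinase Syk. It lies on chromosome 6 from 123258748 to 123266829, and no annotated gene overlaps it. Its counts were 641, 371 and 367 in DBA/2J against 256 and 112 in Gpnmb+, or 14.4, 8.64 and 8.22 CPM against 5.04 and 2.29. All DBA/2J pools were above both Gpnmb+ pools. The difference was 2.84-fold (95% interval 1.40 to 5.76), a log2 fold change of 1.51 (SE 0.42, unadjusted p = 0.0111, adjusted p = 0.170 from edgeR). The adjusted p ran from 0.00675 to 0.409 over the alternatives tried. Without Gpnmb+ pool 1 the log2 fold change was 2.19 (adjusted p = 0.101), and without Gpnmb+ pool 2 it was 1.05 (adjusted p = 0.409). The largest value of Clec4e was in DBA/2J pool 1, which also held the most RNA of S100a9, a neutrophil gene, at 125.9 CPM against 8.99 and 12.4 in the other DBA/2J pools. Gpnmb+ pool 1 had 45.3 CPM of S100a9 and Gpnmb+ pool 2 had 4.15. The 8 tested of 11 neutrophil markers summed to 74.4 to 310.8 CPM in DBA/2J and 83.1 and 359.9 in Gpnmb+, with pool 1 the highest in both genotypes. That sum is weighted to genes of high count such as Ltf, which had the smallest log2 fold change of the list (-1.77). It put Gpnmb+ pool 1 above DBA/2J pool 1, whereas S100a9 had the reverse order. Of the 8 tested markers, 6 had a log2 fold change above 0 and 2 below, with a median of 0.83. Ly6g, a defining neutrophil marker, was counted 7, 0 and 0 times in DBA/2J against 2 and 0 times in Gpnmb+. Without pool 1 of both genotypes, a setting chosen after the values were seen, Clec4e had a log2 fold change of 1.90 and was called (adjusted p = 0.0275, 1.89% of all genes called there).

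The promoter windows of Clec4e and Mrc1 are printed because Clec4e had the largest difference of the 10 genes, and Mrc1 was the member whose pool pattern was closest to that of Csf1r. The sequences are from RefSeq's promoter table (GRCm38.p6), which held 7 of the 10 genes, and were placed on GRCm39 by exact match. They run 5′ to 3′ on the gene's strand, up to the annotated transcript. The Clec4e window is chr6:123266831-123267080 on the minus strand, and the Mrc1 window is chr2:14233975-14234150 on the plus strand. Capitals mark matches, on either strand, to 2 patterns: TTGCNNAA, a C/EBP-type motif, and GAGGAA, the core bound by the myeloid factor PU.1. Both motifs were chosen after the values were seen.
Clec4e: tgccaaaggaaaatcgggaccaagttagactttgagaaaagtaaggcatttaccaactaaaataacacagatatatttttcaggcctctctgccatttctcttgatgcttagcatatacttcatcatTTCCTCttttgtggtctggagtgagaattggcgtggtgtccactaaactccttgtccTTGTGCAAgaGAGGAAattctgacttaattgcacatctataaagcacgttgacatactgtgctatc
Mrc1: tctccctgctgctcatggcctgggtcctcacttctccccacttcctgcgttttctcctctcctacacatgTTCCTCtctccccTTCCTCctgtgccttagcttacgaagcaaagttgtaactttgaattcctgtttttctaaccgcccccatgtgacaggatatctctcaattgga
In Clec4e the C/EBP-type match lies at -66 to -59 from the RefSeq start and the GAGGAA matches at -123 to -118 and -56 to -51, with no overlap between them. In Mrc1 the GAGGAA matches lie at -180 to -175 and -167 to -162. Of 32851 promoters in the table, 9.56% held TTGCNNAA and 23.3% held GAGGAA. The C/EBP-type motif was found in 1 of the 7 members and GAGGAA in 3 (Aif1, Clec4e and Mrc1).

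Clec4e belongs to a cluster of C-type lectin genes on chromosome 6. Of 12 genes of such receptors and their signaling, edgeR called 1, limma-voom called 0 and DESeq2 called 2, Clec4n and Clec5a. The gene called by edgeR was Clec4n, which encodes the fungal receptor Dectin-2 and lies near Clec4e at 123206802 to 123223980. Its counts were 2336, 1973 and 1607 in DBA/2J against 878 and 975 in Gpnmb+, or 52.5, 45.9 and 36.0 CPM against 17.3 and 19.9, with no overlap. The log2 fold change of Clec4n was 1.27 (SE 0.18, adjusted p = 0.0484 from edgeR). The call ended with limma-voom (adjusted p = 0.0516) and with any single pool left out (adjusted p = 0.0733 to 0.165), while the log2 fold change stayed between 1.14 and 1.40. Without pool 1 of both genotypes it also ended, at a log2 fold change of 1.06 (adjusted p = 0.0688).

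Clec4d, between Clec4n and Clec4e on the chromosome and encoding a partner of Mincle, had 44.6, 47.8 and 35.7 CPM in DBA/2J and 33.0 and 39.5 in Gpnmb+. The pools overlapped, with a log2 fold change of 0.24 (SE 0.15, adjusted p = 0.510). Clec5a, another activating myeloid lectin and named for its DESeq2 call, had a log2 fold change of 0.59 (SE 0.13, adjusted p = 0.110 from edgeR). Clec7a, the beta-glucan receptor Dectin-1, had a log2 fold change of 0.51 (adjusted p = 0.383) and Clec12a, an inhibitory receptor, of -0.70 (adjusted p = 0.323). The shared signaling genes Syk (0.09) and Bcl10 (0.10) had log2 fold changes near the list median of 0.09. Clec4a1, chosen after its values were seen, followed pool 1 rather than genotype, with 25.9 and 35.6 CPM in pool 1 of DBA/2J and Gpnmb+ against 7.40 to 12.0 in the other pools.

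The pool by pool values divided the members by more than genotype. Of the 10 genes, 7 were higher in Gpnmb+ pool 1 than in Gpnmb+ pool 2, including all 4 general macrophage genes, by 0.33 (Cx3cr1) to 0.75 (Adgre1) on the log2 scale. Lyve1 (-0.40), Timd4 (-0.70) and Cd163 (-0.80) had the opposite order. The same 3 genes were at their lowest in pool 2 among the DBA/2J pools, as was Folr2. Of the 19 companion genes of perivascular and resident macrophages, 11 were lower in Gpnmb+ pool 1 than in pool 2, for example Cd209g (-0.95) and Cbr2 (-0.86), and 7 were at their lowest in pool 2 among the DBA/2J pools. Cd209g was among these 7, whereas Cbr2 was at its highest there, with 962.3 CPM against 619.1 and 577.6. These are descriptions of single pools and have no test.

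**Figure D3:**
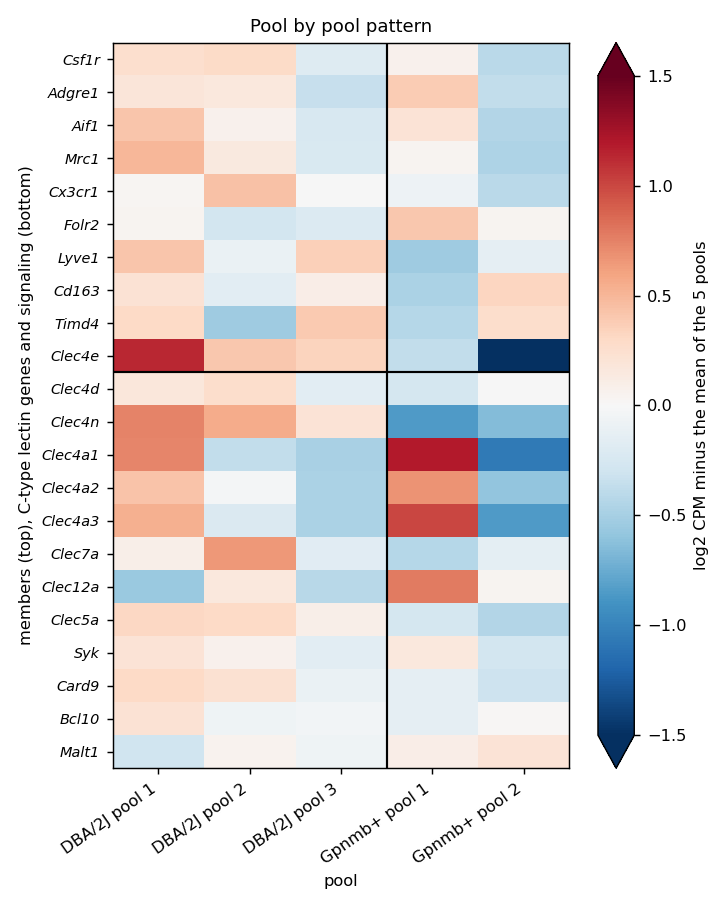
Log2 CPM of each gene minus its mean over the 5 pools, with a column for each pool, the members above the black line and the 12 C-type lectin and signaling genes beneath it. Csf1r, Adgre1, Aif1, Mrc1 and Cx3cr1 are lowest in Gpnmb+ pool 2, Lyve1, Cd163 and Timd4 are below their means in Gpnmb+ pool 1, and Clec4e and Clec4n are above their means in all DBA/2J pools.

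Likeness to Csf1r was measured as the root mean square difference of centered log2 CPM over the 5 pools, which share their libraries, so it is a description. Among the members, Mrc1 (0.13), Aif1 (0.14), Cx3cr1 (0.16) and Adgre1 (0.17) were close to Csf1r, whereas Folr2 (0.37), Lyve1 (0.42), Cd163 (0.47), Timd4 (0.58) and Clec4e (0.70) were not. Among 13895 genes of sufficient level, the most similar to Csf1r were Pik3cg (0.035), Cd52 (0.051), Loxl4 (0.052), Mrnip (0.058) and Stab1 (0.060), and 42 genes were within 0.1. Stab1, a scavenger receptor, was also on the companion list. The genes closest to Clec4e were Gpr132 (0.15), Selp (0.17), Cxcl14 (0.17), Isyna1 (0.19) and Matn2 (0.21), where the range of Clec4e itself was 2.63 and no gene was within 0.1.

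To set each gene beside a macrophage marker, its counts were divided by those of Csf1r in the same pool. Whether both came from the same cells was not tested. The log2 ratios of DBA/2J did not overlap those of Gpnmb+ for 3 of the other 9 members, where 21.3% of all genes showed such a separation (4.03% higher and 17.3% lower in DBA/2J). Clec4e was higher relative to Csf1r in all DBA/2J pools, by 1.28 on the log2 scale. Folr2 was lower by 0.65 (log2 difference -0.65), and Adgre1 was lower by 0.29 (log2 difference -0.29). With 3 pools against 2 the exact two-sided permutation test cannot give a p below 0.2, which was its value for each of the 3 (adjusted 0.6). With the summed counts of 18 macrophage and pan-myeloid genes in place of Csf1r, Clec4e alone of these 9 members was separated, by 1.40, beside 25.8% of all genes. That sum is weighted to Lyz2, Ctss and Mpeg1, with mean counts of 121077, 55628 and 34810, so the 18 genes did not enter it evenly.

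**Figure D4:**
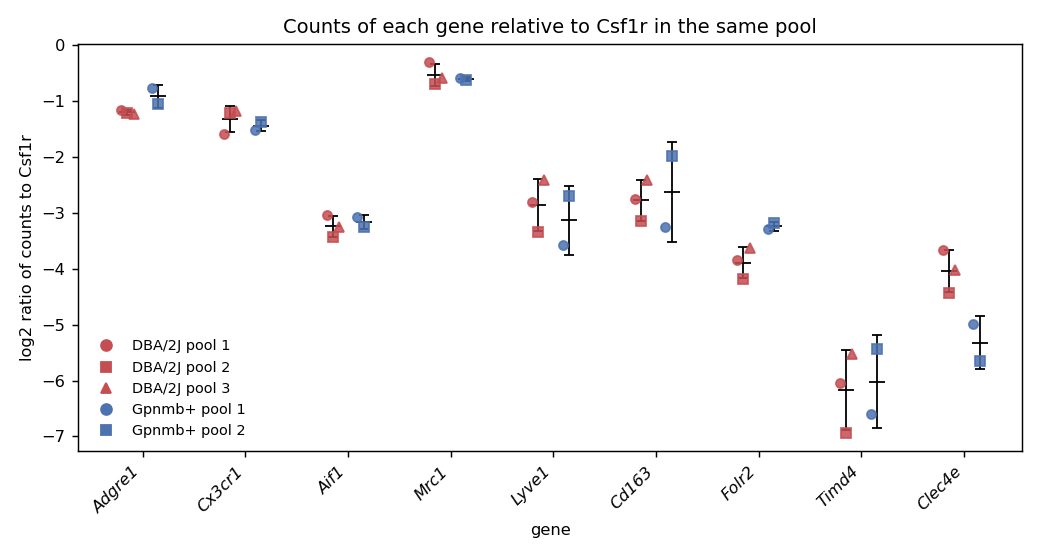
Log2 ratio of each gene's counts to those of Csf1r in the same pool, colored points for the pools and black bars for the genotype mean ± SD (n = 3 and n = 2). Clec4e is higher in all 3 DBA/2J pools than in both Gpnmb+ pools, and Folr2 and Adgre1 are lower.

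The wider macrophage program was described with lists of related genes. Of the 18 macrophage and pan-myeloid genes none was called by edgeR, DESeq2 or limma-voom. An unadjusted p under 0.05 in edgeR was reached by 4 (15.9% of all genes), 16 had a log2 fold change above 0 and the median was 0.25. The complement gene C1qa had 172.6, 158.0 and 128.8 CPM in DBA/2J and 123.9 and 104.4 in Gpnmb+, which did not overlap (log2 fold change 0.42, SE 0.15, adjusted p = 0.259). Itgam, the integrin CD11b, had a log2 fold change of -0.23 (SE 0.09, adjusted p = 0.315). The 19 perivascular and resident companions had 9 values above 0 and 10 below, a median of -0.05, no call by edgeR, DESeq2 or limma-voom and no unadjusted p under 0.05 (0 of 19), with Cbr2, a carbonyl reductase, at -0.65 (adjusted p = 0.383) and Cd209d, a lectin, at 0.49 (adjusted p = 0.364).

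Of 18 inflammatory macrophage genes edgeR and limma-voom called none and DESeq2 called 2, Acod1 and Cd14. An unadjusted p under 0.05 in edgeR was found for 5 (15.9% of all genes), 16 had a log2 fold change above 0 and the median was 0.68. DBA/2J pool 1 stood apart within this list. Il6, the cytokine interleukin-6, had 458 counts in DBA/2J pool 1 and 8 to 36 in the others, and the list summed to 600.3 CPM in DBA/2J pool 1 against 292.5 and 310.0 in the other DBA/2J pools and 248.1 and 261.5 in Gpnmb+. Tlr2, a receptor of bacterial lipoproteins, was more even, with 59.7, 57.4 and 43.3 CPM in DBA/2J and 39.3 and 37.9 in Gpnmb+ (log2 fold change 0.47, SE 0.15, adjusted p = 0.227). Tnf was highest in Gpnmb+ pool 2, at 10.1 CPM against 1.81 to 3.04 elsewhere.

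Markers of other cells that express some of the 10 genes were examined beside them. None of 6 microglia markers, 8 monocyte markers, 8 dendritic cell markers, 8 tested neutrophil markers, 6 mast cell markers or 7 blood endothelium markers was called by edgeR or limma-voom. An unadjusted p under 0.05 was reached by 0, 2, 1, 1, 0 and 1 of them in that order, and DESeq2 called Plac8 among the monocyte markers and Ccr7 among the dendritic cell markers. The monocyte receptor Ccr2 had 142.4 CPM in Gpnmb+ pool 1 and 19.4 in Gpnmb+ pool 2, with 29.8 to 68.4 in DBA/2J, and the monocyte list was also highest in Gpnmb+ pool 1, at 483.1 CPM. The dendritic cell markers had a median of 0.68, and Ccr7, a receptor for migration to lymph nodes, had a log2 fold change of 2.37 (SE 0.59, adjusted p = 0.144). The part of these cells in the values of the 10 genes was not tested.

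**Figure D5:**
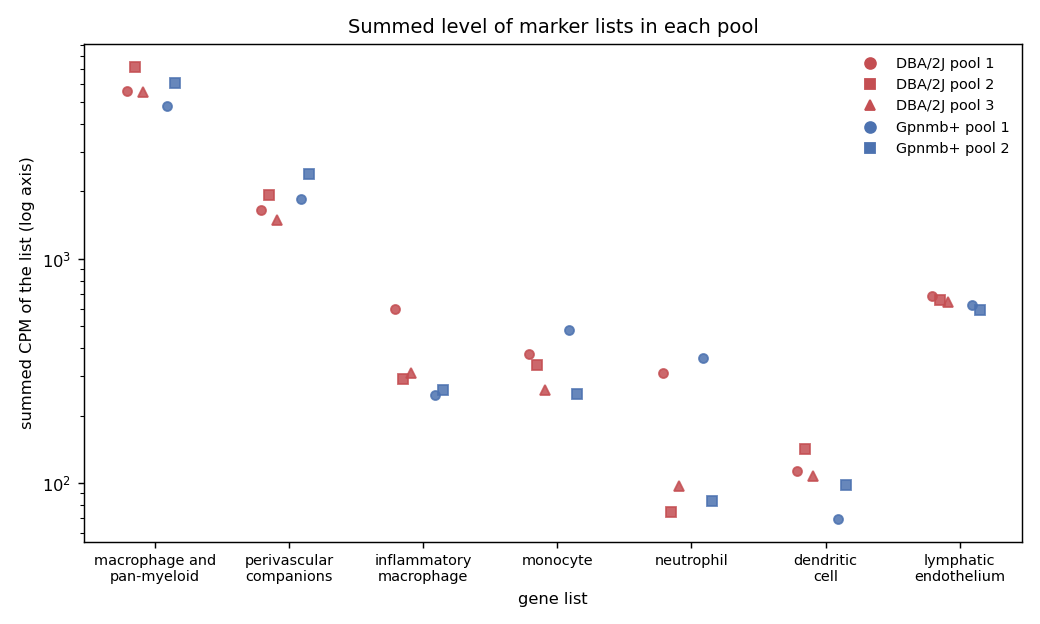
Summed CPM of 7 marker lists in each pool, on a log axis. Pool 1 of both genotypes is the highest for the neutrophil list (310.8 and 359.9), and DBA/2J pool 1 stands above the other pools for the inflammatory list (600.3). Each sum is weighted to the genes of highest count in its list, such as Ltf in the neutrophil list.

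Markers of the angle tissue itself were examined too, and they differed between the genotypes. Of 7 such markers, 1 had a log2 fold change above 0 and 6 below, with a median of -0.82. An unadjusted p under 0.05 from edgeR was reached by 6, beside 15.9% of all genes. Their summed level was 1122.0 to 1332.8 CPM in DBA/2J and 1634.8 and 1651.4 in Gpnmb+. The part of tissue makeup in the values of the members was not tested. Edn3, endothelin-3, was called lower in DBA/2J, with a log2 fold change of -0.86 (SE 0.11, adjusted p = 0.0392 from edgeR), and the call ended with any single pool left out (adjusted p = 0.0645 to 0.166). Myoc, the trabecular meshwork gene myocilin, was present in every pool at 159.8 to 534.4 CPM and was not called (log2 fold change -1.06, adjusted p = 0.165). In all, 3 of the 150 companion genes tested in 15 lists were called by edgeR (0.796% of all genes) and 12 by DESeq2 (4.7% of all genes). An unadjusted p under 0.05 in edgeR was reached by 29 of the 150, beside 15.9% of all genes. The median log2 fold change of the 150 was 0.15.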

How the data were processed

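Iridocorneal RNA of 5 mouse pools was sequenced as paired-end reads. Read trimming by the authors used fastp and alignment used STAR and Ensembl's copy of GRCm39. The deposited values are counts per gene of reads with a single genomic location, without normalization. The counting tool, the versions of the tools and the strand setting are not given in the sources used here, so Csf1r, Cx3cr1, Aif1, Mrc1, Cd163 and Folr2, which overlap other annotated genes, are uncertain to that degree.

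Names, positions and lengths came from GENCODE mouse release 39, which named 56323 identifiers. No pair of libraries was identical. Totals were 43900661 to 49837758 counts per pool. The percentage given for Timd4 covers counting error only, whereas the 95% intervals of fold changes come from the edgeR fit and include the spread between pools. The tests were run under R 4.3.3, with edgeR 4.0.16 (TMM scaling, quasi-likelihood test, no covariate, at least 10 counts in at least 1 pool, adjusted p of at most 0.05, 1.5-fold), limma 3.58.1 and DESeq2 1.42.0, and Python 3.11.15 was used for the tables, with pandas 2.3.3 and scipy 1.17.1. The fit was also run on simulated counts with less spread between pools than in these data. That run does not show how well the fit performs on them. Log2 CPM used a prior count of 2 and ratios to Csf1r an offset of 0.5. The common biological coefficient of variation was 20.7%.

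The 10 genes, the 15 companion lists (153 genes) and the tests were chosen with earlier results of these data known. From each list, the genes called, the 3 of highest mean count and those of largest and smallest log2 fold change could be named. Genes of similar pattern needed a mean log2 CPM of at least 1. Alternatives were DESeq2 size factors, DESeq2, limma-voom, filterByExpr, no count filter, no fold minimum, a replicate block and each pool left out. Another, without pool 1 of both genotypes, was added after the data were seen. Proteomics was not analysed here. A result of the angle marker list is left out of the report.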

Additional observations from a re-analysis of the deposited data

How the results depend on the processing

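No member was called by edgeR (0), but DESeq2, the replicate block and the fit without pool 1 of both genotypes each called 1, Clec4e. With a pool left out the members called stayed at 0. For all genes the 157 calls became 927 with DESeq2, 360 without the count filter, 362 without pool 1 of both genotypes, and 1 to 217 with a pool left out (6, 1 and 17 without DBA/2J pool 1, 2 or 3, 217 and 2 without Gpnmb+ pool 1 or 2). The 3 companion calls became 12 with DESeq2, 5 without the count filter, 9 with the replicate block, 6 without pool 1 of both genotypes, and 0 to 2 with a pool left out. The 3 members separated relative to Csf1r became 1 with the macrophage sum as reference and 3 to 5 with a pool left out, where fewer pools separate more easily and the share of all genes separated ran from 25.1% to 75.4% (21.3% with all pools).

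The sign turned for 4 members. Adgre1 (-0.36 to 0.39 with a pool left out) had a log2 fold change of 0.16 with the block, 0.12 without DBA/2J pool 3, 0.39 without Gpnmb+ pool 1 and 0.31 without pool 1 of both genotypes. Aif1 (-0.092 to 0.56) was at -0.092 without Gpnmb+ pool 2. Cd163 (-0.26 to 0.54) was at -0.26 without Gpnmb+ pool 1 and -0.33 without pool 1 of both. Timd4 (-0.16 to 0.55) was at -0.030 with the block, -0.017 without DBA/2J pool 3, -0.16 without Gpnmb+ pool 1 and -0.26 without pool 1 of both. The cause was not tested.

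The pool numbers are shared by only 2 pairs and the labels do not say that a number marks a shared batch. The deviations of pools 1 from their genotype means correlated at 0.37 and those of pools 2 at 0.34 over 13896 genes. The 2 Gpnmb+ pools deviate from their mean by equal and opposite amounts, so these 2 values are not independent of each other. With pool number as a block, 220 genes were called, and Clec4e had a log2 fold change of 1.71 (adjusted p = 0.0416 from edgeR). Fits without a Gpnmb+ pool leave 1 library there, assumed to vary like the DBA/2J pools. Csf1r, Cx3cr1, Mrc1, Lyve1, Folr2 and Clec4e kept their direction under all 12 alternatives. Measured by the longest transcript, Lyve1 and Cd163 exchanged places and the other 8 genes kept their rank. Depth limits Timd4 and Clec4e most, with lowest counts of 65 and 112.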
